A study of Homo sapiens with 15 samples.

Results

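The subject is the response to geldanamycin at 40 nM that was alike after 24 h and after 48 h of treatment in A549 cells, an established human lung carcinoma line. It was measured on 12 of the 15 Affymetrix HG-U133 Plus 2.0 arrays of the study, 6 from treated and 6 from vehicle cultures: the 40 nM and vehicle groups at 24 h and at 48 h, with 3 arrays each. All cultures were left 24 h to attach first, vehicle cultures received DMSO (0.4%), and 40 nM is the dose the labels give as the IC50. The 3 arrays outside this comparison came from cells given 10 nM, the labelled IC20, for 48 h. Cells were trypsinized once confluent, and no label says whether the 3 arrays of a group came from separate cultures; p-values here measure array-to-array spread alone, which may be technical. In bulk RNA, fewer cells of a kind and less RNA per cell cannot be told apart.

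Geldanamycin is a benzoquinone ansamycin that occupies the nucleotide pocket of the chaperone HSP90 and blocks its cycle. HSP90 folds and stabilises client proteins, among them receptor tyrosine kinases, SRC-family kinases, CDK4 and steroid receptors, and it holds the heat shock factor HSF1 in check, so its inhibition is known to release HSF1 and raise chaperone genes. A549 cells carry a mutated KEAP1, which leaves the oxidant-sensing factor NRF2 active before any treatment.

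The common effect of a gene is the mean of its log2 differences, 40 nM minus vehicle, at 24 h and at 48 h, where 1 unit is a doubling. It is given ± its standard error, over 3 arrays in each of 4 groups, and was called where the p-value of limma's moderated test, adjusted by Benjamini-Hochberg over 19775 genes, was below 0.05. Of these genes, 6521 (33.0%) were called, 3081 higher (15.6%) and 3440 lower (17.4%). A call of the mean can rest on 1 time: 2597 of the called genes passed the test at 24 h only, 1053 at 48 h only and 497 at neither time (13.1%, 5.32% and 2.51% of all genes). The chaperone HSPB1 was called at 24 h only, with a common effect of 0.71 ± 0.043 made of 1.33 at 24 h and 0.09 at 48 h. At 24 h 30.5% of all genes were called, and at 48 h 20.1%. Both effects had the same sign in 62.5% of all genes, and treated and vehicle arrays were apart at both times in 1 direction in 19.0%.

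A gene was therefore taken to change alike when it was called for the common effect and at each time in 1 direction, and the 95% interval of its effect at 48 h minus its effect at 24 h lay within a factor of 1.5 either way. Calls at both times in 1 direction numbered 1162 higher (5.88%) and 1147 lower (5.8%). The full rule held for 1610 genes (8.14% of all), 727 higher (3.68%) and 883 lower (4.47%). A further 494 genes (2.5%) moved 1 way at both times with effects that differed (adjusted p below 0.05) and passed the limit of 1.5, 387 of them larger at 24 h and 107 larger at 48 h. For 205 genes (1.04%) the interval was too wide to say either. In 269 genes (1.36%) both times were called in opposite directions.

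The alike response was broad and mostly below 2-fold. The median size of its common effects was 0.41, against 0.32 over all genes called for the common effect and 0.11 over all genes. The rule asks for calls, so a median above that of all genes is built in. In it, 31 rises and 12 falls reached 2-fold (0.157% and 0.0607% of all genes), beside 207 rises (1.05%) and 70 falls (0.354%) called for the common effect. Of the 252 genes that moved 1 way at both times with a common effect of at least 2-fold, 43 were alike, 112 were larger at 24 h, 44 larger at 48 h and 53 were neither. The limit admits narrow intervals, and so favours bright genes with little spread: the alike genes had a median level of 8.78 (log2), against 6.03 over all genes. Just inside the limit among genes of at least 2-fold were SULT1A1 and FA2H, whose intervals reached factors of 1.5 and 1.495. Just outside were KLF2, HOGA1 and PLLP, with 1.505, 1.506 and 1.506.

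**Figure D1:**
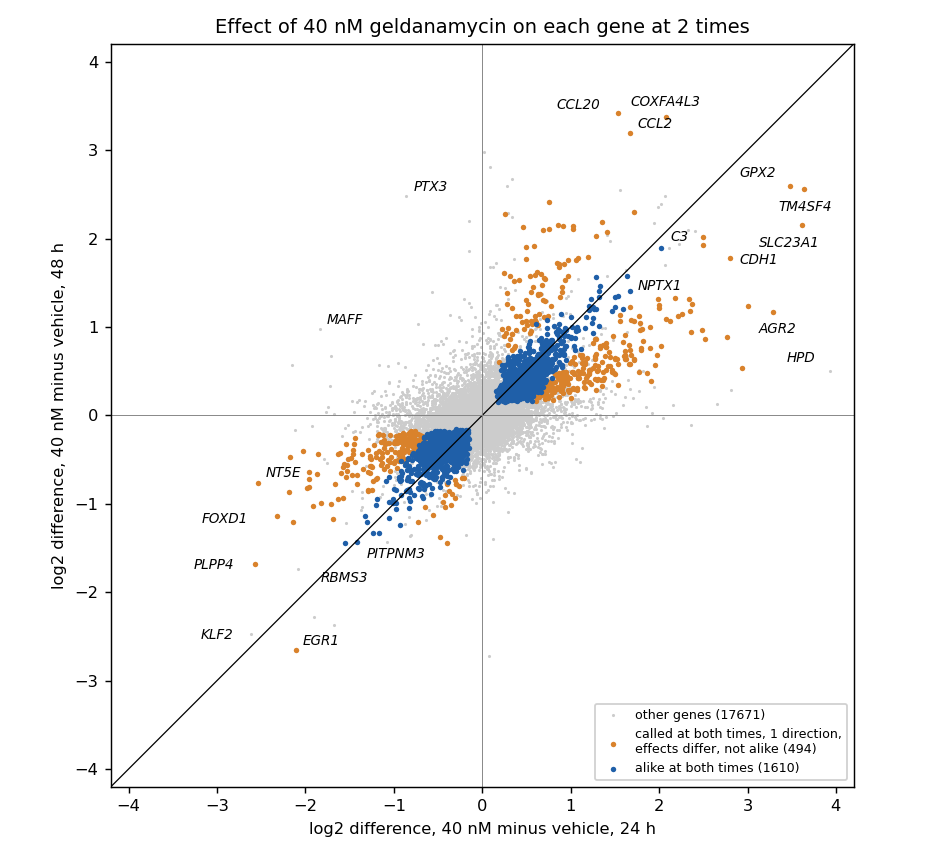
Effect of 40 nM at 24 h (x axis) and at 48 h (y axis), as log2 of 40 nM minus vehicle, 1 point per gene, for 19775 genes, with the 1610 alike genes in blue and the 494 genes with unequal effects in orange. Alike genes lie along the diagonal, up to C3 at 2.03 and 1.89, while genes with larger effects, such as TM4SF4 at 3.64 and 2.56, lie off it.

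Depth has no meaning on arrays, so the number of arrays limits the precision. Averaged over all probe sets, the 24 h arrays had a level of 5.13 to 5.14 and the 48 h arrays of 5.52, so levels are compared only within a time, and a step common to 1 time cancels in the effects. The 24 control probe sets of spiked poly-A RNA averaged 6.40 in vehicle and 6.42 at 40 nM at 24 h, and 5.93 and 5.81 at 48 h. The 3' minus 5' signal of ACTB, a sign of RNA or labelling quality, was 0.12 ± 0.0049 (SD, n = 3) in vehicle and 0.14 ± 0.049 at 40 nM at 24 h, and 0.35 ± 0.06 and 0.44 ± 0.027 at 48 h. On the 10 nM arrays it was 2.68 ± 0.025. Of the epithelial markers, 6 of 8 rose and 1 fell, and the mean of their log2 levels on an array ran from 8.56 to 8.61 in vehicle and 9.19 to 9.24 at 40 nM at 24 h, and from 9.09 to 9.17 and 9.51 to 9.58 at 48 h. Of 12 leukocyte markers 2 rose and 1 fell, of 11 fibroblast markers 1 rose and 2 fell, and of 11 endothelial markers none was called by limma (unadjusted p below 0.05 in 0 higher and 0 lower). The means of the leukocyte and fibroblast markers on an array ran from 3.56 to 4.42 and from 4.055 to 4.99. Markers of alveolar type 2 cells, for which A549 often serves as a model, had 2 of 11 called higher and 1 lower. The shares called were 25.0% for leukocytes and 27.3% for fibroblasts and for type 2 cells, below the 33.0% of all genes.

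Promoter stretches of 5 genes show the kinds of sequence that the known regulators of these genes read, and are taken up beside the genes below. Each is the 250 bases before the gene's start, 5′ to 3′ on the gene's strand, from RefSeq on GRCh38.p14, with the matches of a motif searched on both strands in capitals. CHORDC1, a co-chaperone, at chr11:90223050-90223299 (- strand), is shown for the heat shock element cores TTCNNGAA and GAANNTTC, SRF at chr6:43171019-43171268 (+ strand) and TPM4 at chr19:16067288-16067537 (+ strand) for the CArG box that serum response factor binds, GCLM at chr1:93909431-93909680 (- strand) for the antioxidant response element core TGACNNNGC that NRF2 binds, and NFKBIA at chr14:35404750-35404999 (- strand) for the NF-kB consensus site. A match is a description of the letters and not evidence of binding.
CHORDC1: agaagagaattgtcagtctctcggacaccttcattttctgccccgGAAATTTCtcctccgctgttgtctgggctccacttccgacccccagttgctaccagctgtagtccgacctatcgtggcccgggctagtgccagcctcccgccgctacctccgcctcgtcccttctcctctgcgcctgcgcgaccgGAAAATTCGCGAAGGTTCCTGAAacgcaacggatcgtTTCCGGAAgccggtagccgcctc
SRF: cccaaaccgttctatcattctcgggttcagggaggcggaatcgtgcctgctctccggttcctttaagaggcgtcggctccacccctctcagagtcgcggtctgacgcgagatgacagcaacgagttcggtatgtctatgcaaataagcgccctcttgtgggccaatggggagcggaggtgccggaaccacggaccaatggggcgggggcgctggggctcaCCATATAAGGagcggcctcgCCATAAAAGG
TPM4: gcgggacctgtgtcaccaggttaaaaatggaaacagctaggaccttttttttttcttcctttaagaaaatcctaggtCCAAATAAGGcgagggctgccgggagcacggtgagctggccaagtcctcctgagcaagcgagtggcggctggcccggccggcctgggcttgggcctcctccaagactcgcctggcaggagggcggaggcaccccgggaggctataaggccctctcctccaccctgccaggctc
GCLM: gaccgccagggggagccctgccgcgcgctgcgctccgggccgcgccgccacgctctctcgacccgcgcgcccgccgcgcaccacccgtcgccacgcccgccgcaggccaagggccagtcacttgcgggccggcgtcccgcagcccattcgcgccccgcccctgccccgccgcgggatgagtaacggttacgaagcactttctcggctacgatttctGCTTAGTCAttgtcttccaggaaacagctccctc
NFKBIA: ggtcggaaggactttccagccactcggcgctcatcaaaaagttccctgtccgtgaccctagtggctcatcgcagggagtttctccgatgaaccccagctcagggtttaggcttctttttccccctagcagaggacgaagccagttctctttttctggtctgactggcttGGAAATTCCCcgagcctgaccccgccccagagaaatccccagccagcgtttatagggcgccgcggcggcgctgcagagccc

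The 30 leading alike genes were picked among those whose treated and vehicle arrays did not overlap at either time, as held for 1592 of the 1610. Their separation, given below, is thus part of the choice and not a result. The largest alike rise was that of complement C3, the protein on which the complement pathways converge. C3 read 8.84, 8.80 and 8.72 in vehicle and 10.84, 10.82 and 10.78 at 40 nM at 24 h, and 9.62, 9.62 and 9.64 against 11.53, 11.48 and 11.53 at 48 h. Treated and vehicle arrays were far apart at both times, and the common effect was 1.96 ± 0.038 (adjusted p = 3.2e-11), a factor of 3.88, made of 2.03 at 24 h and 1.89 at 48 h. The proteases of the first complement component rose with it, C1S by 1.24 ± 0.065 (1.26 at 24 h and 1.21 at 48 h) and C1R by 0.95 ± 0.063 (1.01 at 24 h and 0.89 at 48 h). CD46, a membrane cofactor that limits C3 on the cell's own surface, rose by 0.73 ± 0.051.

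NPTX1, a secreted neuronal pentraxin, came next. Its values were 7.24, 7.21 and 6.93 in vehicle and 8.74, 8.58 and 8.97 at 40 nM at 24 h, and 7.92, 7.92 and 7.89 against 9.44, 9.49 and 9.56 at 48 h. No treated array overlapped a vehicle array, and the common effect was 1.61 ± 0.072 (adjusted p = 1.6e-08), with 1.64 at 24 h and 1.58 at 48 h. NFKBIA, the inhibitor that holds NF-kB in the cytoplasm and is itself an NF-kB target, read 9.44, 9.35 and 9.31 in vehicle and 10.54, 10.63 and 10.78 at 40 nM at 24 h, and 9.85, 9.83 and 9.88 against 11.40, 11.44 and 11.43 at 48 h. Its common effect was 1.42 ± 0.047 (adjusted p = 2.0e-09), and its unadjusted 95% interval of the difference between times was 0.081 to 0.49, within the limit. The estimate was slightly larger at 48 h, but the difference was not called after adjustment. The values of NFKBIA come from an _s_at probe set. The gene's other probe set, which is dim, gave a common effect of -0.027 ± 0.095, so the call of the common effect rests on the brighter one.

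ANXA4, a calcium-dependent membrane-binding annexin, read 10.80, 10.72 and 10.72 in vehicle and 12.28, 12.20 and 12.27 at 40 nM at 24 h, and 11.44, 11.39 and 11.44 against 12.77, 12.79 and 12.73 at 48 h. It rose by 1.42 ± 0.038 (adjusted p = 4.8e-10), with its groups apart at both times and a second probe set at 1.52 ± 0.055. CLDN2, a pore-forming tight junction claudin, had 9.10, 9.03 and 8.91 in vehicle and 10.24, 10.42 and 10.40 at 40 nM at 24 h, and 9.50, 9.38 and 9.56 against 11.05, 11.02 and 10.77 at 48 h. Its common effect was 1.40 ± 0.064 (adjusted p = 1.8e-08), 1.34 at 24 h and 1.47 at 48 h. FGFR4, a fibroblast growth factor receptor and an HSP90 client as a protein, read 7.10, 7.02 and 7.0 in vehicle and 8.27, 8.36 and 8.35 at 40 nM at 24 h, and 7.55, 7.56 and 7.5 against 8.72, 8.70 and 8.80 at 48 h. The FGFR4 groups did not overlap and the common effect was 1.24 ± 0.041 (adjusted p = 2.0e-09); the next probe set gave 0.63 ± 0.069, while the remaining pair, both dim, gave 0.0081 ± 0.08 and 0.04 ± 0.059.

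FA2H, which hydroxylates fatty acids of sphingolipids, rose by 1.53 ± 0.072 (1.67 at 24 h and 1.40 at 48 h), SCD5, a fatty acid desaturase, by 1.33 ± 0.084 (1.32 at 24 h and 1.34 at 48 h), and SLC27A2, which activates and takes up very long chain fatty acids, by 1.32 ± 0.046 (1.47 at 24 h and 1.18 at 48 h). The sulfotransferase SULT1A1 rose by 1.39 ± 0.045. Its 2 bright probe sets can match the other SULT1A genes, and its plain _at probe set, a dim one, gave 0.0027 ± 0.067, so which of these genes rose is uncertain. GLRX, which reduces glutathione-bound thiols, rose by 1.36 ± 0.052 and SLC7A7, a cationic amino acid exchanger, by 1.27 ± 0.076. IFIT1, an interferon-induced sensor of foreign RNA ends, rose by 1.44 ± 0.081 (1.53 at 24 h and 1.35 at 48 h).

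ACTA2, smooth muscle actin, rose by 1.36 ± 0.058. It read 7.41, 7.45 and 7.25 in vehicle and 8.84, 8.70 and 8.53 at 40 nM at 24 h, and 8.16, 8.13 and 8.08 against 9.51, 9.50 and 9.58 at 48 h. All treated arrays lay above all vehicle arrays at each time. ACTA2's further probe sets, both dim, gave -0.16 ± 0.11 and 0.04 ± 0.067.

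**Figure D2:**
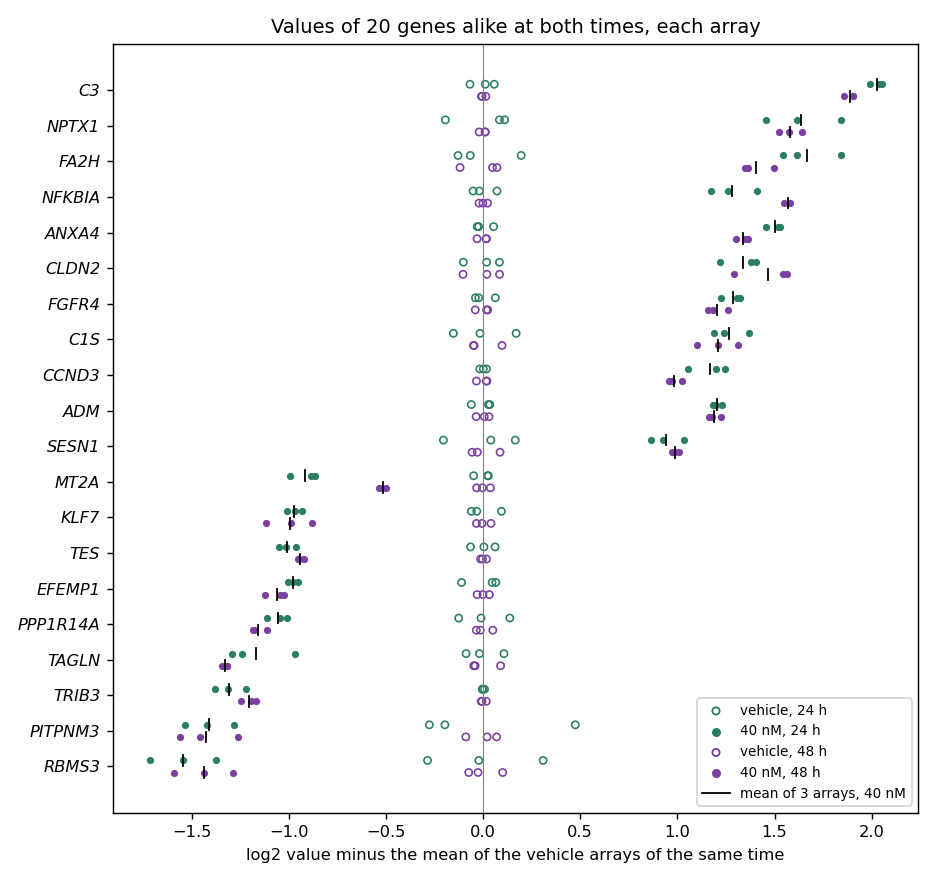
Log2 value of each of the 12 arrays minus the mean of the vehicle arrays of the same time (x axis) for 20 alike genes (y axis), with open points for vehicle, filled points for 40 nM, colours for the time and black ticks for the mean of the 3 treated arrays. The 24 h and 48 h ticks of a gene nearly line up, as for C3 (2.03 and 1.89) and TRIB3 (-1.31 and -1.20).

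The largest alike falls were in RBMS3, an RNA-binding protein, and PITPNM3, a membrane-associated phosphatidylinositol transfer protein. RBMS3 read 6.66, 6.32 and 6.06 in vehicle and 4.80, 4.63 and 4.97 at 40 nM at 24 h, and 8.09, 8.13 and 8.26 against 6.57, 6.87 and 6.72 at 48 h. It was lower on every treated array than on any vehicle array of its time, by a common effect of -1.49 ± 0.10 (adjusted p = 3.4e-07). Its next 3 probe sets fell too, with -1.14 ± 0.081, -1.07 ± 0.06 and -0.94 ± 0.082. PITPNM3 read 7.70, 6.95 and 7.03 in vehicle and 5.69, 5.80 and 5.95 at 40 nM at 24 h, and 7.96, 7.80 and 7.91 against 6.33, 6.43 and 6.63 at 48 h. The vehicle arrays of PITPNM3 at 24 h were spread, with 1 array above the others, and its common effect was -1.42 ± 0.12 (adjusted p = 1.9e-06).

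TRIB3, a pseudokinase induced by the stress factors ATF4 and DDIT3, held nearly equal levels within each group. The values were 11.04, 11.04 and 11.03 in vehicle and 9.66, 9.82 and 9.72 at 40 nM at 24 h, and 10.94, 10.96 and 10.94 against 9.78, 9.70 and 9.76 at 48 h. Its common effect was -1.25 ± 0.04 (adjusted p = 1.5e-09), with -1.31 at 24 h and -1.20 at 48 h and a second probe set at -1.07 ± 0.089. TRIM7, a ubiquitin ligase that binds glycogenin, read 9.10, 9.02 and 9.03 in vehicle and 7.62, 7.65 and 7.88 at 40 nM at 24 h, and 9.07, 9.01 and 9.0 against 7.83, 7.91 and 7.93 at 48 h. Treated arrays of TRIM7 were lower than vehicle at both times, with a common effect of -1.23 ± 0.051.

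TAGLN, transgelin, an actin-binding protein of smooth muscle and a target of serum response factor, read 8.79, 8.66 and 8.59 in vehicle and 7.44, 7.39 and 7.71 at 40 nM at 24 h, and 10.06, 9.93 and 9.92 against 8.63, 8.65 and 8.66 at 48 h. The groups of TAGLN were apart at both times, with a common effect of -1.25 ± 0.061 (adjusted p = 3.3e-08) and a second bright probe set at -1.14 ± 0.059; a dimmer one, of the plain _at kind, gave -0.13 ± 0.056. PPP1R14A, an inhibitor of myosin phosphatase, had 9.63, 9.49 and 9.37 in vehicle and 8.45, 8.38 and 8.49 at 40 nM at 24 h, and 10.11, 10.02 and 10.04 against 8.87, 8.88 and 8.95 at 48 h. Its common effect was -1.11 ± 0.05, and those of CDC42EP3, an effector of the GTPase CDC42, of RFLNB, which bundles actin through filamin, and of TES, a focal adhesion protein, were -1.07 ± 0.054, -1.02 ± 0.039 and -0.98 ± 0.038. The matrix protein EFEMP1, fibulin-3, had a common effect of -1.02 ± 0.044, and the secreted guidance ligand SLIT3 one of -0.94 ± 0.079.

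Among the other leading falls, GPAM, the mitochondrial acyltransferase that starts glycerolipid synthesis, changed by -1.09 ± 0.058, PDP1, the phosphatase that activates pyruvate dehydrogenase, by -1.0 ± 0.071, and WDR4, a subunit of a tRNA methyltransferase, by -0.92 ± 0.036. The Kruppel-like factor KLF7 changed by -0.98 ± 0.05, with all 4 of its other probe sets lower, between -0.22 ± 0.072 and -1.21 ± 0.092. Of the 30 leading alike genes, 24 had further probe sets, and in 20 of those the brightest other one was called in the same direction. Over all 1047 alike genes with further probe sets this held for 615, with 27 called in the opposite direction and 405 not called. Over all genes it held for 2454 of 10523. These counts concern the common effect alone. Likeness between the times was not tested on other probe sets. On the brightest other probe set, effects at 24 h and 48 h were far apart in some alike genes. They were -2.07 and -0.67 in SARS1, -1.69 and -0.81 in STC2, and 0.77 and 0.20 in GSR. In others they were close, as in TES (-0.85 and -0.86) and EFEMP1 (-1.01 and -1.06). How many genes fell on each side was not counted. Probe sets of 1 gene share the RNA and are no replicates. When probe sets marked _x_at and _s_at, some of which can match several genes, were left out, the calls of SULT1A1, TAGLN, CHORDC1, HSPB8, ABCC3, ASNS, CFB, HES1, KLF2, CASP8, P4HA1, NDUFA2, NFKBIA and BECN1 were lost, each read then from a dimmer probe set. The estimates of NFKBIA (-0.027) and BECN1 (-0.048) also turned sign, and neither was called.

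The heat shock and chaperone genes were higher, but mostly not alike. Of 27 measured, 19 rose and 3 fell, with a median common effect 0.32 (medians 0.49 at 24 h and 0.15 at 48 h), beside a median of -0.012 over all genes; 6 rises and 1 fall were alike. The alike rises were in the co-chaperones CHORDC1, FKBP4, CDC37 and DNAJA1, the mitochondrial chaperonin partner HSPE1 and the collagen chaperone SERPINH1. CHORDC1, an HSP90 partner whose promoter above holds 6 heat shock element cores, several of them overlapping within the 60 bases before the start, read 10.27, 10.33 and 10.08 in vehicle and 11.01, 10.94 and 10.90 at 40 nM at 24 h, and 10.30, 10.32 and 10.30 against 10.79, 10.83 and 10.74 at 48 h. Its groups were apart at both times and its common effect was 0.60 ± 0.048 (adjusted p = 1.6e-06), 0.73 at 24 h and 0.48 at 48 h; its second probe set, a dim one, gave 0.28 ± 0.13, which was not called.

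SERPINH1 rose by 0.55 ± 0.043, HSPE1 by 0.46 ± 0.042 and FKBP4 by 0.45 ± 0.043. The 1 alike fall in the list was HSF1 itself, the factor that drives the others: it read 8.05, 8.04 and 7.95 in vehicle and 7.81, 7.80 and 7.70 at 40 nM at 24 h, and 8.74, 8.79 and 8.87 against 8.54, 8.48 and 8.56 at 48 h. The fall was small and the arrays were apart at both times, with a common effect of -0.26 ± 0.043 (adjusted p = 5.5e-04), and it is a change of transcript, not of the factor's activity. Among the drug's targets, cytosolic HSP90AA1 and HSP90AB1 rose on the mean, by 0.19 ± 0.036 and 0.31 ± 0.035. Their effects were 0.30 at 24 h and 0.079 at 48 h for HSP90AA1 and 0.53 at 24 h and 0.091 at 48 h for HSP90AB1, and the difference between times passed the test in HSP90AB1 (adjusted p = 0.0012) and not in HSP90AA1 (adjusted p = 0.054). HSP90B1 of the endoplasmic reticulum (0.16 ± 0.07, adjusted p = 0.10), mitochondrial TRAP1 (-0.11 ± 0.042, adjusted p = 0.055) and the J-domain protein DNAJB1 (-0.061 ± 0.042, adjusted p = 0.32) were not called. The small heat shock protein HSPB8 rose more at 24 h than at 48 h, 2.0 at 24 h and 1.248 at 48 h, and HSPA4L, of the HSP110 family, had 1.39 at 24 h and 0.99 at 48 h, a difference that missed the threshold (adjusted p = 0.075).

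Of 29 NRF2 targets, genes of glutathione synthesis and quinone reduction, 23 rose and 2 fell, with a median common effect 0.42 (medians 0.69 at 24 h and 0.17 at 48 h). Alike were 5: the glutathione synthesis subunit GCLM at 0.51 ± 0.041, glutathione reductase GSR at 0.50 ± 0.064, the efflux pump ABCC3 at 0.41 ± 0.039, the carbonyl reductase CBR1 at 0.29 ± 0.048 and thioredoxin reductase TXNRD1. GCLM, with 1 antioxidant response element core 34 bases before its start, read 11.20, 11.22 and 11.05 in vehicle and 11.82, 11.85 and 11.87 at 40 nM at 24 h, and 11.65, 11.65 and 11.64 against 11.95, 12 and 11.94 at 48 h. Its groups were apart at both times, yet its effects, 0.69 at 24 h and 0.32 at 48 h, also differed from each other (adjusted p = 0.0084): a gene can be alike within a factor of 1.5 and still differ by a small, well-measured amount, as 111 of the 1610 did. The haem oxygenase HMOX1 rose unequally, 1.67 at 24 h and 1.23 at 48 h. The enzymes of drug and fatty acid oxidation and conjugation had 16 of 24 higher and 2 lower, with 5 alike rises, among them CYP2S1 at 0.67 ± 0.10, CYP4F11 at 0.47 ± 0.076 and the quinone reductase NQO2 at 0.50 ± 0.046. CYP4F11 was dim, at 2.84 to 2.99 in vehicle and 3.24 to 3.565 at 40 nM at 24 h. The 24 h arrays had medians of 4.32 to 4.42 over all probe sets, so its 24 h effect lies near the floor.

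Amino acid response genes gave the most alike falls of any list. ATF4 is a transcription factor whose translation rises when amino acids run short or the endoplasmic reticulum is stressed, and it switches on amino acid transporters, tRNA synthetases and asparagine synthetase. Of 32 measured, 28 fell, 3 rose and 12 fell alike, with a median common effect -0.51 (medians -0.72 at 24 h and -0.39 at 48 h). Besides TRIB3 these were VLDLR, a lipoprotein receptor (-0.92 ± 0.041), the tRNA synthetases SARS1 (-0.78 ± 0.042), WARS1 (-0.60 ± 0.043), AARS1 (-0.56 ± 0.036) and CARS1 (-0.34 ± 0.036), the transporter chains SLC7A5 (-0.29 ± 0.041) and SLC3A2 (-0.35 ± 0.043), DDIT4, ALDH1L2, STC2 and ATF4 (-0.47 ± 0.04). ASNS, asparagine synthetase, fell unequally, -1.86 at 24 h and -0.66 at 48 h, and NUPR1, a stress-induced chromatin protein, had effects of -1.08 at 24 h and -1.43 at 48 h.

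Genes of the unfolded protein response, the reaction of the endoplasmic reticulum to misfolded proteins, moved in both directions: 5 of 24 rose and 7 fell, with a median common effect -0.027 (medians 0.029 at 24 h and -0.052 at 48 h). The alike falls were XBP1, the factor activated by IRE1 splicing (-0.49 ± 0.064), and HSPA5, the lumenal HSP70 (-0.45 ± 0.039). This alike share, 2 of 24, is near the 8.14% of all genes. HSPA5 is a usual marker of this response, and it was 12.04, 12.03 and 11.94 in vehicle and 11.49, 11.40 and 11.48 at 40 nM at 24 h, and 11.98, 12.01 and 12.05 against 11.64, 11.69 and 11.63 at 48 h. Treated arrays of HSPA5 were lower at both times, without overlap.

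Of 23 p53 targets, 19 rose and 1 fell, 7 of them alike rises, with a median common effect 0.56 (medians 0.53 at 24 h and 0.55 at 48 h). The effects of 10 were called higher at 48 h than at 24 h, and those of 3 lower. SESN1, a leucine-sensing inhibitor of mTORC1, read 6.71, 6.59 and 6.34 in vehicle and 7.47, 7.41 and 7.58 at 40 nM at 24 h, and 7.14, 7.0 and 7.03 against 8.03, 8.05 and 8.07 at 48 h. Its arrays were apart at both times with a common effect of 0.96 ± 0.063 (adjusted p = 2.9e-07). MDM2, the ubiquitin ligase that removes p53, rose by 0.90 ± 0.05, RRM2B, the p53-induced ribonucleotide reductase subunit, by 0.67 ± 0.078, TIGAR, a fructose bisphosphatase, by 0.63 ± 0.064 and BAX, which permeabilises mitochondria, by 0.56 ± 0.061; XPC and PHLDA3 were the remaining alike rises. CDKN1A, the cyclin-dependent kinase inhibitor p21, rose unequally, 0.65 at 24 h and 1.38 at 48 h, as did ZMAT3, 1.33 at 24 h and 0.78 at 48 h.

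Proliferation genes fell on the mean of both times, with median effects near 0 at 48 h. The G1/S and replication list had 27 of 34 lower and the G2/M and mitosis list 28 of 32, with median effects of -0.80 and -0.96 at 24 h and of 0.039 and 0.037 at 48 h. None of these falls was alike. The mitotic kinase AURKB shows it, with -1.55 at 24 h and -0.15 at 48 h. The ribonucleotide reductase subunit RRM2 was called lower on the mean (-0.70 ± 0.037) although its effects were -1.73 at 24 h and 0.33 at 48 h, and that call ended when time was fitted as an additive block (adjusted p = 0.095). RRM2's other probe set, also bright, gave -1.81 at 24 h and -0.10 at 48 h, so the rise at 48 h rests on the probe set used. The alike members were 2 rises in D-type cyclins, which start the cycle with CDK4 and CDK6: CCND3 at 1.08 ± 0.042 (1.17 at 24 h and 0.98 at 48 h) and CCND1 at 0.27 ± 0.046 (0.22 at 24 h and 0.31 at 48 h). CCND3 read 10.81, 10.83 and 10.80 in vehicle and 12.02, 12.06 and 11.87 at 40 nM at 24 h, and 10.16, 10.16 and 10.11 against 11.10, 11.12 and 11.17 at 48 h. Its treated arrays lay above the vehicle arrays at each time.

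The apoptosis regulators had 14 of 24 higher and 2 lower, 5 of them alike rises. Besides BAX these included the BH3-only BCL2L11 (BIM) at 0.58 ± 0.057, the initiator caspase CASP8 at 0.54 ± 0.076 and BNIP3, a mitophagy receptor, at 0.34 ± 0.039. BCL2A1, a survival member induced by NF-kB, was called on the mean from 48 h alone (0.087 at 24 h and 2.81 at 48 h). Autophagy and lysosome genes held 9 alike rises among 26 measured, 13 of which rose and 5 fell. They comprised the cargo receptors SQSTM1 (0.51 ± 0.039) and OPTN (0.57 ± 0.048), the lysosomal galactosidase GLA (0.48 ± 0.041), the cathepsins CTSB, CTSD and CTSL, the membrane protein LAMP1, GABARAPL2 and BECN1. ATG5, needed to lipidate LC3, had a common effect of -0.48 ± 0.048, while another of its probe sets was called higher (0.37 ± 0.073), so its direction is uncertain. Probe sets called in the opposite direction were also found for SQSTM1 (-0.35 ± 0.076), ABCC3 (-0.39 ± 0.057) and NDUFA2 (-0.22 ± 0.065).

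Inflammatory genes had the highest median common effect of the 34 lists, with the larger part at 48 h. Among the 28 listed targets of NF-kB and cytokines, 25 rose and 1 fell, with a median common effect 1.07 (medians 0.39 at 24 h and 1.74 at 48 h). NFKBIA and the chemokine CXCL5 (0.40 ± 0.044) were the 2 alike rises, a share near the 8.14% of all genes that were alike. CCL2, a monocyte chemoattractant, rose by 1.68 at 24 h and 3.19 at 48 h. Interferon-stimulated genes had 20 of 27 higher, 0 lower by limma (unadjusted p below 0.05 in 1) and 3 alike, with a median common effect 0.71 (medians 0.47 at 24 h and 0.69 at 48 h). Besides IFIT1 the alike ones were the RNA sensor RIGI at 0.71 ± 0.06 and IRF9, the DNA-binding part of the interferon response complex, at 0.52 ± 0.061. IFIT3, a partner of IFIT1, had 1.41 at 24 h and 1.57 at 48 h, and its interval for the difference, -0.29 to 0.62, passed the limit.

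In the class I presentation and complement list, 16 of 23 rose and 2 fell, and the 4 alike rises were all complement genes: C3, C1S, C1R and CD46. The alternative pathway protease CFB rose unequally (1.19 at 24 h and 1.79 at 48 h), and CFI, which cleaves C3b, was called from 24 h (1.62 at 24 h and 0.20 at 48 h).

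Output of the ERK pathway, which runs from RAS through RAF to MEK and ERK, was mainly lower: 18 of 26 fell and 3 rose, with a median common effect -0.39 (medians -0.70 at 24 h and -0.10 at 48 h). Alike falls were MYC (-0.58 ± 0.043) and SPRED2, a RAS-pathway inhibitor (-0.50 ± 0.061), and alike rises DUSP5, a nuclear ERK phosphatase (1.14 ± 0.068), and CCND1. MYC read 11.20, 11.15 and 11.18 in vehicle and 10.41, 10.54 and 10.56 at 40 nM at 24 h, and 11.10, 11.02 and 11.04 against 10.52, 10.63 and 10.52 at 48 h. Treated arrays were lower without overlap at both times. The immediate early factors EGR1 and FOS had larger falls, -2.11 at 24 h and -2.65 at 48 h for EGR1 and -1.90 at 24 h and -2.28 at 48 h for FOS.

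Transcripts of HSP90's kinase clients did not share a direction: 9 of 28 rose and 6 fell, with a median common effect 0.057 (medians 0.045 at 24 h and 0.014 at 48 h). The alike rises were FGFR4, SRC (0.90 ± 0.043), LYN (0.77 ± 0.071) and EGFR (0.60 ± 0.057), and the alike falls MET (-0.53 ± 0.042) and CDK4 (-0.39 ± 0.037). EGFR read 8.65, 8.56 and 8.41 in vehicle and 9.09, 9.34 and 9.28 at 40 nM at 24 h, and 9.73, 9.64 and 9.68 against 10.14, 10.22 and 10.19 at 48 h. Its treated arrays were higher at both times; these are transcript levels, and client protein was not measured. The SRC call was lost when a gene's probe sets were averaged (0.13, adjusted p = 0.065).

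The actin and serum response factor targets held 7 alike falls among 24 measured: 13 fell, 2 rose, with a median common effect -0.15 (medians -0.23 at 24 h and -0.15 at 48 h). Besides TAGLN these were tropomyosin TPM4 (-0.83 ± 0.053), the LIM protein FHL2 (-0.50 ± 0.043), SRF (-0.39 ± 0.058), profilin PFN1, the actin crosslinker ACTN1 and zyxin ZYX. The calponin CNN3 rose alike. Smooth muscle actin ACTA2, whose larger alike rise is given above, is neither in this list nor in the mesenchymal list below. The largest common effect within this list was 0.38. SRF, whose promoter above holds 2 CArG boxes in the 30 bases before its start and which is known to act on its own gene, read 8.02, 7.90 and 8.0 in vehicle and 7.48, 7.35 and 7.59 at 40 nM at 24 h, and 8.28, 8.07 and 8.28 against 7.84, 7.94 and 7.99 at 48 h. TPM4, with 1 CArG box 173 bases before its start, read 9.55, 9.53 and 9.33 in vehicle and 8.60, 8.67 and 8.66 at 40 nM at 24 h, and 9.85, 9.85 and 9.84 against 9.04, 9.10 and 8.88 at 48 h. Both were lower on all treated arrays of a time than on its vehicle arrays, and the TPM4 effects, -0.83 at 24 h and -0.84 at 48 h, were nearly equal.

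Mesenchymal and TGF-beta genes had 20 of 28 lower and 3 higher, with 7 alike falls. They were the transcription factor SNAI2 (-0.64 ± 0.044), the lysyl oxidase LOXL2 (-0.63 ± 0.048), N-cadherin CDH2 (-0.47 ± 0.041), the inhibitory SMAD7 (-0.42 ± 0.075), SKIL, vimentin VIM and TGFBI. The epithelial junction and keratin genes had 10 of 25 higher and 4 lower, with 5 alike rises: CLDN2, the adhesion molecule EPCAM (0.48 ± 0.082), desmoglein DSG2 (0.45 ± 0.04) and the paired keratins KRT8 (0.45 ± 0.04) and KRT18 (0.38 ± 0.036). E-cadherin CDH1 rose more, and more at 24 h than at 48 h: 2.80 at 24 h and 1.78 at 48 h. The secretory epithelium list had 13 of 32 higher and 2 alike, the mucin MUC13 at 0.69 ± 0.10 and the tetraspanin-like TM4SF1 at 0.61 ± 0.04. That alike share is near the 8.14% of all genes. The share called in the secretory list, 40.6%, was made of rises, beside 15.6% called higher and 33.0% called either way among all genes. EPCAM and MUC13 were dim in vehicle at 24 h, at 3.91 to 4.06 and 4.025 to 4.12. The medians of those arrays over all probe sets were 4.32 to 4.42.

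**Figure D3:**
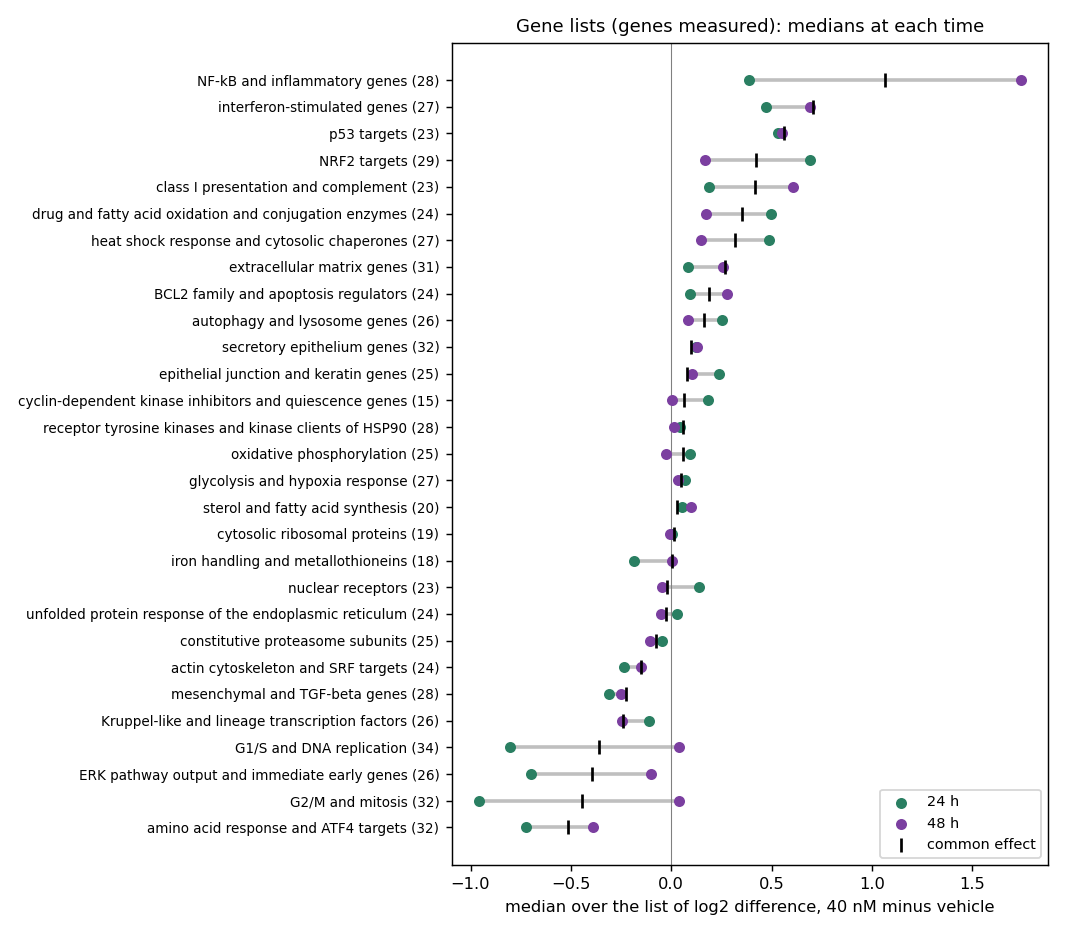
Median over each gene list of the effect at 24 h, the effect at 48 h and the common effect (x axis, log2 of 40 nM minus vehicle), with the number of genes measured in parentheses. The p53 targets have medians of 0.53 and 0.55, and the G2/M list has -0.96 and 0.037.

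Glycolysis and hypoxia genes held 7 alike rises and 2 alike falls among 27 measured, 12 of which rose and 6 fell. ADM, the vasodilator peptide adrenomedullin, read 8.21, 8.21 and 8.12 in vehicle and 9.36, 9.41 and 9.38 at 40 nM at 24 h, and 8.07, 8.09 and 8.03 against 9.22, 9.24 and 9.28 at 48 h. It rose without overlap at either time, with effects of 1.20 at 24 h and 1.19 at 48 h. The carbonic anhydrase CA12 rose by 0.66 ± 0.038, the fructose 2,6-bisphosphate synthase PFKFB3 by 0.63 ± 0.063 and the prolyl hydroxylase P4HA1 by 0.47 ± 0.067, while HK1 and ENO1 fell. The iron handling and metallothionein list had 7 of 18 higher and 7 lower, with 2 alike rises and 4 alike falls. All 7 falls were called at both times. Alike falls included metallothioneins, small zinc- and copper-binding proteins, with common effects of -0.72 ± 0.04 for MT2A, -0.72 ± 0.06 for MT1H and -0.59 ± 0.079 for MT1E. MT1F, called lower from the probe set used, was called higher by its other one (0.24 ± 0.062), so its direction is uncertain. Metallothionein sequences are nearly identical and their probe sets may read one another's transcripts, so they cannot be counted as separate observations. The haem-pathway reductase BLVRB (0.56 ± 0.042) and the iron importer SLC11A2 rose alike in that list.

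The remaining lists held further alike changes. Of 25 respiratory chain genes 8 rose and 1 fell, with alike rises of NDUFV2 (0.38 ± 0.048), NDUFA2 and COX7C. The share called, 36.0% with rises and falls added, was near the 33.0% of all genes. It lay mostly in rises, whereas all genes divided into 15.6% higher and 17.4% lower. Of 25 proteasome subunits 1 rose and 8 fell, with PSMC3 (-0.30 ± 0.042) and PSMC4 (-0.21 ± 0.038) alike. The share called in this list was also 36.0% with rises and falls added, but it lay mostly in falls. The alike share of the list was near that of all genes. Ribosomal protein genes had 1 higher and 1 lower of 19, none of them alike. In sterol and fatty acid synthesis, 5 of 20 rose and 3 fell, a share called of 40.0% beside the 33.0% of all genes. HMGCS1, which makes HMG-CoA, rose alike (0.42 ± 0.054) and the elongase ELOVL6 fell alike (-0.66 ± 0.054). Matrix genes had 17 higher and 5 lower of 31, with 4 alike rises and 2 alike falls, the fibrillin FBN2 (0.44 ± 0.079) alike higher and the collagen COL5A1 (-0.58 ± 0.055) and the protease inhibitor TIMP2 (-0.42 ± 0.039) alike lower. Nuclear receptors had 8 higher and 6 lower of 23, with NR2F1 (-0.73 ± 0.088) and PPARG (-0.29 ± 0.052) alike lower. Kruppel-like and lineage factors had 7 higher and 14 lower of 26, KLF7 and HES1 (-0.52 ± 0.07), a Notch target, alike lower. The alike shares of the sterol, nuclear receptor and Kruppel-like lists were near the 8.14% of all genes. No alike gene was among the 15 cyclin-dependent kinase inhibitors and quiescence genes, of which 5 rose and 4 fell.

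The 5 largest rises of the common effect all belonged to genes whose effects at 24 h and 48 h differed. GPX2, a gastrointestinal-type glutathione peroxidase and NRF2 target, read 6.35, 6.41 and 6.16 in vehicle and 9.88, 9.70 and 9.77 at 40 nM at 24 h, and 9.24, 9.07 and 9.09 against 11.71, 11.72 and 11.77 at 48 h. It rose strongly at both times, with a difference between the effects of -0.88 ± 0.11 (adjusted p = 2.5e-04). TM4SF4, a membrane protein of liver and gut epithelium, had effects of 3.64 at 24 h and 2.56 at 48 h, and SLC23A1, a vitamin C transporter, of 3.62 at 24 h and 2.15 at 48 h. Some rises grew instead: CCL20, a chemokine that draws CCR6-bearing cells, had 1.53 at 24 h and 3.42 at 48 h, and COXFA4L3, a paralog of a cytochrome c oxidase-associated protein, 2.08 at 24 h and 3.37 at 48 h. CCL20 read 3.97, 4.21 and 3.99 in vehicle and 5.36, 5.59 and 5.82 at 40 nM at 24 h, and 7.68, 7.53 and 7.59 against 11.03, 10.97 and 11.07 at 48 h. Its groups were apart at both times and its effects differed by 1.89 ± 0.15 (adjusted p = 1.4e-05). Both CCL20 and SLC23A1 (3.62 to 4.10) were dim in vehicle at 24 h, below those arrays' medians of 4.32 to 4.42 over all probe sets. Their 24 h effects thus start near the floor, and what this adds to the differences between times was not tested.

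EGR1, an immediate early zinc-finger factor, fell most of all genes in this class. It read 8.64, 8.52 and 8.57 in vehicle and 6.6, 6.50 and 6.31 at 40 nM at 24 h, and 8.22, 8.34 and 8.32 against 5.66, 5.66 and 5.61 at 48 h. The fall was deep at both times, and on the probe set used its effects differed by -0.55 ± 0.11 (adjusted p = 0.0043). EGR1's other probe sets, both dimmer, fell too but not more at 48 h. They gave -1.66 at 24 h and -1.54 at 48 h, and -1.08 at 24 h and -0.77 at 48 h. The direction of the difference between times is thus uncertain for EGR1. The effects were -2.57 at 24 h and -1.68 at 48 h in PLPP4, a lipid phosphate phosphatase, -2.32 at 24 h and -1.14 at 48 h in the forkhead factor FOXD1, -2.14 at 24 h and -1.20 at 48 h in the coronin CORO2B and -2.54 at 24 h and -0.76 at 48 h in NT5E, the ecto-nucleotidase CD73. These falls were smaller at 48 h, by 1.18 ± 0.085 in FOXD1 and 1.77 ± 0.16 in NT5E.

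KLF2, a Kruppel-like factor, had the deepest common effect that could be placed in neither class. It read 8.64, 8.60 and 8.43 in vehicle and 6.14, 6.08 and 5.61 at 40 nM at 24 h, and 8.29, 8.11 and 8.41 against 6.0, 5.79 and 5.59 at 48 h. Its effects were -2.61 at 24 h and -2.47 at 48 h, and the interval of their difference was -0.31 to 0.59, which reaches a factor of 1.505. HOGA1, an aldolase of hydroxyproline breakdown, rose by 2.33 at 24 h and 2.10 at 48 h with an interval of -0.59 to 0.13. NR1D2, a haem-binding repressor of the circadian clock, had -1.54 at 24 h and -1.22 at 48 h.

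In genes called in opposite directions a common effect averages across the change of sign. MAFF, a small MAF factor, read 7.39, 7.07 and 7.05 in vehicle and 5.33, 5.10 and 5.57 at 40 nM at 24 h, and 6.98, 6.78 and 6.87 against 7.75, 7.87 and 7.93 at 48 h. It was lower than vehicle at 24 h (-1.84) and higher at 48 h (0.98), and its common effect, -0.43 ± 0.087, described neither. PTX3, a secreted pentraxin, had -0.86 at 24 h and 2.48 at 48 h, and the hyaluronan synthase HAS3 -0.72 at 24 h and 1.03 at 48 h. The common calls of MAFF and PTX3 ended with time as an additive block (adjusted p = 0.50 and 0.25).

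**Figure D4:**
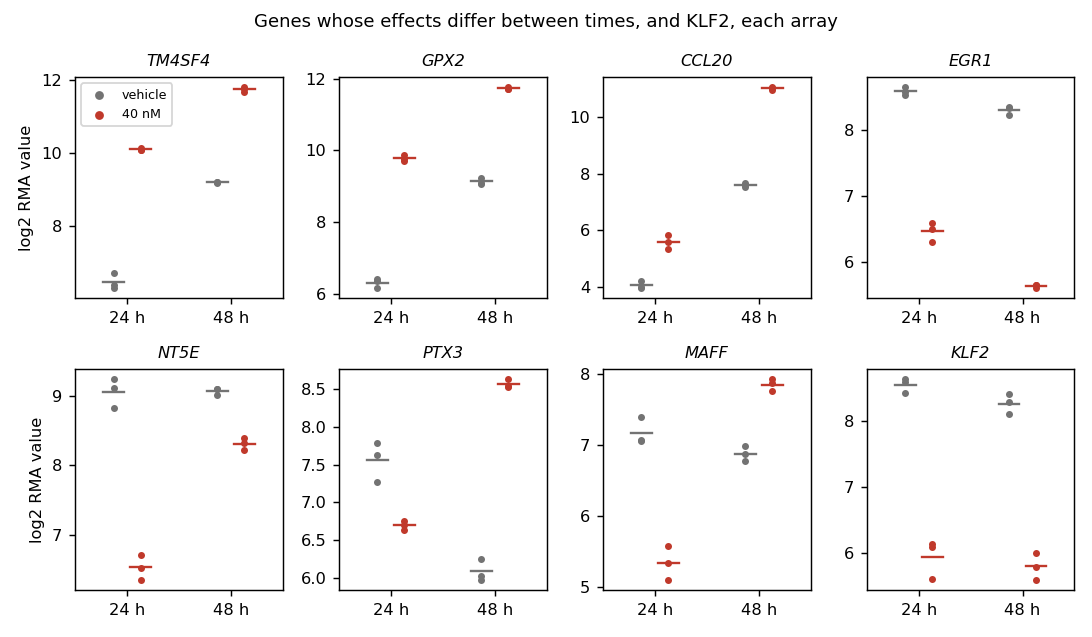
Log2 value (y axis) on each array at 24 h and 48 h (x axis) for 7 genes whose effects differed between the times and for KLF2, with grey for vehicle, red for 40 nM, points for arrays and bars for group means. EGR1 and KLF2 are low on all treated arrays, whereas MAFF is lower than vehicle at 24 h (-1.84) and higher at 48 h (0.98).

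The promoters of the alike genes were searched for the motifs shown above, in the 250 bases before the start. RefSeq promoters matched by symbol 592 of 727 alike rises, 740 of 883 alike falls and 15384 of the 19775 genes. The antioxidant response element core stood in 15.2% of the rises and 11.2% of the falls, against 11.986% of the genes tested and 11.035% of all 27305 promoters. Heat shock element cores stood in 6.76% of the rises, 8.92% of the falls, 9.91% of the genes tested and 11.7% of all promoters. CArG boxes were rarer, in 1.01% of the rises, 1.62% of the falls, 1.14% of the genes tested and 1.14% of all. The NF-kB site, searched after the values of NFKBIA had been seen, was in 2.87% of the rises, 1.22% of the falls, 1.88% of the genes tested and 1.73% of all. These shares are descriptions and were not tested.

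Levels at 10 nM, 48 h, are set beside those of the same time without a test, since the dose differs, the vehicle arrays are shared and the control probe sets of those arrays stand apart. C3 was 9.62 ± 0.012 (SD, n = 3) in vehicle, 11.14 ± 0.062 at 10 nM and 11.51 ± 0.026 at 40 nM. CLDN2 was 9.48 ± 0.10, 11.17 ± 0.055 and 10.95 ± 0.15 in the same order, so it was about as high at 10 nM as at 40 nM. TRIB3 was 10.95 ± 0.014, 10.93 ± 0.018 and 9.74 ± 0.039, and TRIM7 9.02 ± 0.038, 8.97 ± 0.085 and 7.89 ± 0.057, both near vehicle at 10 nM. TAGLN was 9.97 ± 0.078, 7.35 ± 0.15 and 8.65 ± 0.015, lowest at 10 nM. NPTX1 was 7.91 ± 0.018, 6.91 ± 0.16 and 9.49 ± 0.061, below vehicle at 10 nM and above it at 40 nM.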

How the data were processed

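The authors deposited log2 values for every probe set on every array. The submitters' processing notes name RMA and Affymetrix Expression Console, with versions not given in the sources used here. That method removes background, equalises array distributions by quantiles and combines a set's probes. RNA was isolated with RNeasy and labelled with a 3' IVT kit per the labels' protocols, and on such arrays signal comes from near the 3' end. Array means differ between the times and not within them, so the times appear to have been normalized apart.

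The table holds 54675 probe sets, 62 of them controls. GEO's platform annotation named exactly 1 gene for 41091 of the others (41037 matched by gene ID to current symbols) and several for 1801, and left 11721 unnamed here. Each of 19775 genes was read from its brightest probe set on average over the 15 arrays. Group means of 12 arrays were fitted with limma 3.58.1 (lmFit, eBayes) in R 4.3.3, with 8 residual degrees of freedom, two-sided tests and Benjamini-Hochberg adjustment; the script was tested on simulated data. The common effect is the mean of both times' differences, so time enters as separate group means. The median standard error was 0.067 for the common effect and 0.135 for the difference between times.

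The members and the 34 lists were chosen with earlier results of these data known, so lists are described by counts and medians, with no set test. The text names the 15 largest alike rises and 15 largest alike falls among genes whose treated and vehicle arrays did not overlap at either time. It also names the 5 largest unequal changes each way, the 3 largest opposite ones and the leading members of each list. Symbols that only name a locus were left out of the ranked alike, unequal and opposite genes. Other genes were named after their values were seen. Alternatives were other normalizations, filters, probe set choices, models and leaving out each array. Replicate numbers were not treated as pairs: deviations of same-numbered arrays of a time correlated between -0.407 and 0.137. The 10 nM arrays entered the choice of probe sets only, and no genome coordinates were taken from the arrays.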

Additional observations from a re-analysis of the deposited data

Results flagged for a closer look

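For 49 of the named genes the effect of 40 nM differed between the times by limma's test of the difference (adjusted p below 0.05), and the values below, in log2, are the effect at 48 h minus the effect at 24 h. Rises called at both times that were smaller at 48 h had differences of: CDH1 (-1.02), DNAJA1 (-0.33), GCLM (-0.38), GPX2 (-0.88), HMOX1 (-0.44), HSPB8 (-0.75), HSPE1 (-0.40), SERPINH1 (-0.31), SLC23A1 (-1.47), SQSTM1 (-0.25), SRC (-0.31), SULT1A1 (-0.39), TM4SF4 (-1.08), TXNRD1 (-0.23) and ZMAT3 (-0.55). Rises that were larger at 48 h had: CCL2 (1.52), CCL20 (1.89), CDKN1A (0.73), CFB (0.60), COXFA4L3 (1.29) and MDM2 (0.35). Falls that were shallower at 48 h had: AARS1 (0.33), ACTN1 (0.31), ASNS (1.20), ATF4 (0.32), CARS1 (0.26), CDK4 (0.31), CORO2B (0.93), FOXD1 (1.18), MT2A (0.40), NT5E (1.77), PFN1 (0.32), PLPP4 (0.90), SARS1 (0.29), STC2 (0.36), WARS1 (0.31) and WDR4 (0.35). Falls that were deeper at 48 h had: EGR1 (-0.55), SNAI2 (-0.33) and TIMP2 (-0.39). For EGR1 this held on the probe set used and not on its other probe sets. In genes called at 1 time only, or in opposite directions, the differences were: AURKB (1.41), BCL2A1 (2.72), CFI (-1.41), HAS3 (1.75), HSP90AB1 (-0.44), HSPB1 (-1.24), MAFF (2.82), PTX3 (3.33) and RRM2 (2.06). Of these genes, AARS1, ACTN1, ATF4, CARS1, CDK4, DNAJA1, GCLM, HSPE1, MDM2, MT2A, PFN1, SARS1, SERPINH1, SNAI2, SQSTM1, SRC, STC2, SULT1A1, TIMP2, TXNRD1, WARS1 and WDR4 are among the alike genes, their intervals lying within a factor of 1.5. Outside the main measurement, the ACTB control probe sets had a 3' minus 5' signal of 2.68 (log2, mean of 3 arrays) on the 10 nM arrays, above the 0.35 of the vehicle arrays of that time.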

How the results depend on the processing

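Requiring a 2-fold change left 277 common calls, 548 at 24 h, 240 at 48 h, 365 differences and 43 alike genes. With the narrower limit of likeness there were 653 alike genes, and 2107 with a factor of 2. Without _x_at and _s_at probe sets there were 2099 differences and 993 alike genes, among fewer genes tested; the common effect of NFKBIA was then -0.027, adjusted p = 0.89, of RPL14 -0.15, of BECN1 -0.048 and of ITGAM -0.17, each from a dimmer probe set. Array weights, whose estimate did not reach its tolerance, gave 9148 calls at 24 h, 5734 differences and 2626 alike genes. With the replicate number as a block over both times there were 6069 common calls and 1307 alike genes; with a replicate block within a time, which spends degrees of freedom, 2570 calls at 48 h, 1773 differences and 889 alike genes. Leaving out 1 array in turn gave 5928 to 6805 common calls, 5351 to 6102 at 24 h, 3050 to 4368 at 48 h, 2473 to 3342 differences and 1208 to 1668 alike genes. Under the other normalizations, filters and models run the 5 counts stayed within 1.5 times their values; rises made up 44.5% to 51.1% of common calls, against 47.2%. Of 747 values of the 30 leading alike genes under alternatives, 744 kept direction and call. For the other changes the cause was not tested.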
